A study of Mus musculus with 12 samples.

Results

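The integrin genes Itga1, Itga5, Itga6, Itga7, Itga8, Itga10, Itga11, Itgav, Itgb1 and Itgb5 were followed across the cells of the inflamed mouse joint. They were picked by gene symbol, as 10 of the 27998 genes in single-cell RNA tables of CD45-negative cells, and were described across cell types, fibroblast subsets and libraries. The samples came from wild-type C57BL/6 male mice aged 8 to 10 weeks. Each of the 12 libraries was a pool of hind limb joints from 3 animals, sorted to leave out cells with the leukocyte antigen CD45. Libraries were labelled rest for untreated animals at day 0, and peak for days 7 to 9, resolving for day 15 or resolved for day 22 after intravenous arthritogenic K/BxN serum, with 3 libraries for each label. Because a library is a pool, the spread between libraries is a spread between pools and not between single animals.

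Integrins are cell surface receptors made of an α and a β subunit, and they tie the cytoskeleton to the surrounding matrix. The β1 subunit (Itgb1) pairs with most of the α subunits described here. With β1, the α1, α10 and α11 subunits bind collagens, α6 and α7 bind laminins, and α5 and α8 bind fibronectin or related proteins that carry an arginine-glycine-aspartate motif. The αv subunit also binds such proteins and joins either β1 or other β subunits, among them β5 (Itgb5), with which it forms a vitronectin receptor. In the joint, these receptors hold fibroblasts, cartilage and bone cells to collagenous matrix and hold vessel cells to their basement membrane.

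The 10 genes are protein coding and lie at separate places in the genome (build GRCm38, GENCODE M21). Among the α subunits, Itga1 spans chr13:114953096-115101964 on the minus strand, Itga5 chr15:103344286-103366763 on the minus strand, Itga6 chr2:71745616-71858416 on the plus strand, and Itga7 chr10:128933818-128958282 on the plus strand. Itga8 spans chr2:12106632-12301922 on the minus strand, Itga10 chr3:96645584-96664519 on the plus strand, Itga11 chr9:62677826-62783982 on the plus strand, and Itgav chr2:83724397-83806916 on the plus strand. Itgb1 spans chr8:128685654-128733200 and Itgb5 chr16:33829665-33949338, both on the plus strand. The gene Pelo lies within Itga1 on the same strand, so the counts of that pair may not be cleanly divided.

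Promoter windows from RefSeq (GRCm38.p6, 250 bases before to 50 bases after the start of the gene) were found for 8 members, and not for Itga6 and Itga7. The 250 bases before the start are shown for the 2 β subunits and for Itga1 and Itga10. The level of each of these genes differed from fibroblasts in some cell types, as given further on. Capitals mark GC boxes, the letters GGGCGG on either strand. The stretches are chr8:128685404-128685653 for Itgb1, chr16:33829415-33829664 for Itgb5 and chr3:96645334-96645583 for Itga10 on the plus strand, and chr13:115101965-115102214 for Itga1 on the minus strand, each written 5′ to 3′ toward the gene.
Itgb1: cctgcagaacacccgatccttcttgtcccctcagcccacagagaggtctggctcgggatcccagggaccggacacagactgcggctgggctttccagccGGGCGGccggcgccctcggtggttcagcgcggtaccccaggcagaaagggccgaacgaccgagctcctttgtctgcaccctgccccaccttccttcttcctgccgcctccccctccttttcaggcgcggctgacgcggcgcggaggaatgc
Itgb5: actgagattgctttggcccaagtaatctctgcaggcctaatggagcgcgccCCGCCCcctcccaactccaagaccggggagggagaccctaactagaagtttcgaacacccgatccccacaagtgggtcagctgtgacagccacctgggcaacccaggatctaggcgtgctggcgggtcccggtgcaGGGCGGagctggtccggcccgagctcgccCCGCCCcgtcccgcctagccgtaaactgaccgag
Itga1: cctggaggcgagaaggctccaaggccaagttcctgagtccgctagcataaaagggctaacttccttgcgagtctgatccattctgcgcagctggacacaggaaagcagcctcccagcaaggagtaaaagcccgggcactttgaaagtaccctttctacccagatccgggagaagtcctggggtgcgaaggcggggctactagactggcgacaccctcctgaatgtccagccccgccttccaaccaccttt
Itga10: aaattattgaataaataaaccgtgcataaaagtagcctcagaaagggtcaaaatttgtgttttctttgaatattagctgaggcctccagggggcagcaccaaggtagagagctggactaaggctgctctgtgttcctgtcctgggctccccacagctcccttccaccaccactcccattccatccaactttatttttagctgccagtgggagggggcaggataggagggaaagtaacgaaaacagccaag
GC boxes stood in the 300-base windows of Itgb1 (1), Itgb5 (3), Itga5 (2) and Itgav (1), and 35.7% of 32851 mouse promoter windows of that length held at least 1. No GC box was found for Itga1, Itga8, Itga10 and Itga11. None of the 8 windows held a RUNX motif (TGTGGT, in 16.8% of all windows), an AP-1 motif (TGANTCA, in 7.81%), a TATAAA motif (in 13.6%) or a CArG box (in 1.63%). Both strands were searched, no motif overlapped another, and a match or its absence describes these letters only.

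The files held 21042 cells, of which 20060 passed the limits on genes and UMIs, 1227 to 2747 per library. A UMI is a tag that counts an RNA molecule once, and kept cells of a library held 7468914 to 16566202 of them. The median per deposited cell was 5358 UMIs in each of the 12 libraries, and the sources used here do not describe how these equal medians arose. The suffixes 1 to 12 on the cell barcodes order the libraries across the labels, and libraries are grouped below as runs of 3 consecutive suffixes. Run 1 is rest 1, peak 1 and resolving 1, run 2 is resolved 1, rest 2 and peak 2, run 3 is resolving 2, resolved 2 and rest 3, and run 4 is peak 3, resolving 3 and resolved 3. The library nearest in fibroblast expression belonged to the same run for 11 of 12 libraries and to the same label for 0 of 12, and values by run are given beside the results they touch most. No barcode sequence was shared between libraries.

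Clusters were named from marker genes as fibroblast-like, osteoblast-like and so on, and the ending is left out below. Named cells numbered 15859 in 12 types. Fibroblasts (10176 cells in 8 clusters), vascular endothelial cells (1767), osteoblasts (1363) and perivascular cells (657) gave a sum of at least 10 cells in all 12 libraries. Lymphatic endothelial cells (186) and tenocytes (233) did so in 10 libraries, chondrocytes (312) and muscle progenitors with Pax7 and Myod1 (266) in 8, proliferating cells (618) in 6, immune (112) and Schwann cells (108) in 3 and erythroid cells (61) in 2. Each integrin was left out of the clustering and of the marker lists, but the clusters rest on genes that may move with it. Levels are CPM, the UMIs of a gene in the summed cells scaled to a common total. They are not compared between genes, since 3′ tags reach genes to different extents.

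Against fibroblasts, a gene was called when edgeR's adjusted p was under 0.05 and the log2 fold change exceeded 0.5. Of 110 pairs of member and cell type, 19 were higher and 37 lower than in fibroblasts, beside 12.6% and 20.3% of all pairs of gene and cell type over the 9579 genes tested. Leaving out any single library kept 43 of these 56 calls. In perivascular cells 4 members were higher and 2 lower, beside 17% and 23.2% of genes. In vascular endothelial cells 2 were higher and 5 lower, beside 25% and 28%. In osteoblasts 4 were higher and 3 lower, beside 13.9% and 17.4%, and in chondrocytes 2 were higher and 5 lower, beside 19.3% and 28.5%. In tenocytes 3 were higher and 3 lower, beside 7.69% and 16.6%, and in muscle progenitors 1 was higher and 5 lower, beside 11.2% and 27.2%. In lymphatic endothelial cells 1 was higher and 3 lower, beside 12.7% and 27.2%, and in Schwann cells 2 were higher and 2 lower, beside 5.64% and 10.7%. Immune cells had 0 higher and 4 lower, beside 11.1% and 20.3%, proliferating cells 0 and 3, beside 9.88% and 14.7%, and erythroid cells 0 and 2, beside 5.72% and 9.75%. The median log2 fold change over all genes ran from -1.01 in erythroid and -0.46 in immune cells to -0.03 in osteoblasts, and fitted values, unlike CPM, are on TMM scaling. With the 11 types with enough libraries set in order of mean level for each member, 3 of 100 pairs of neighbours had ranges that did not overlap. These were Itga6 in lymphatic endothelial cells above fibroblasts, Itga7 in muscle progenitors above vascular endothelial cells, and Itga11 in osteoblasts above fibroblasts. No share over all genes stands beside this count, so it describes these members only.

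**Figure D1:**
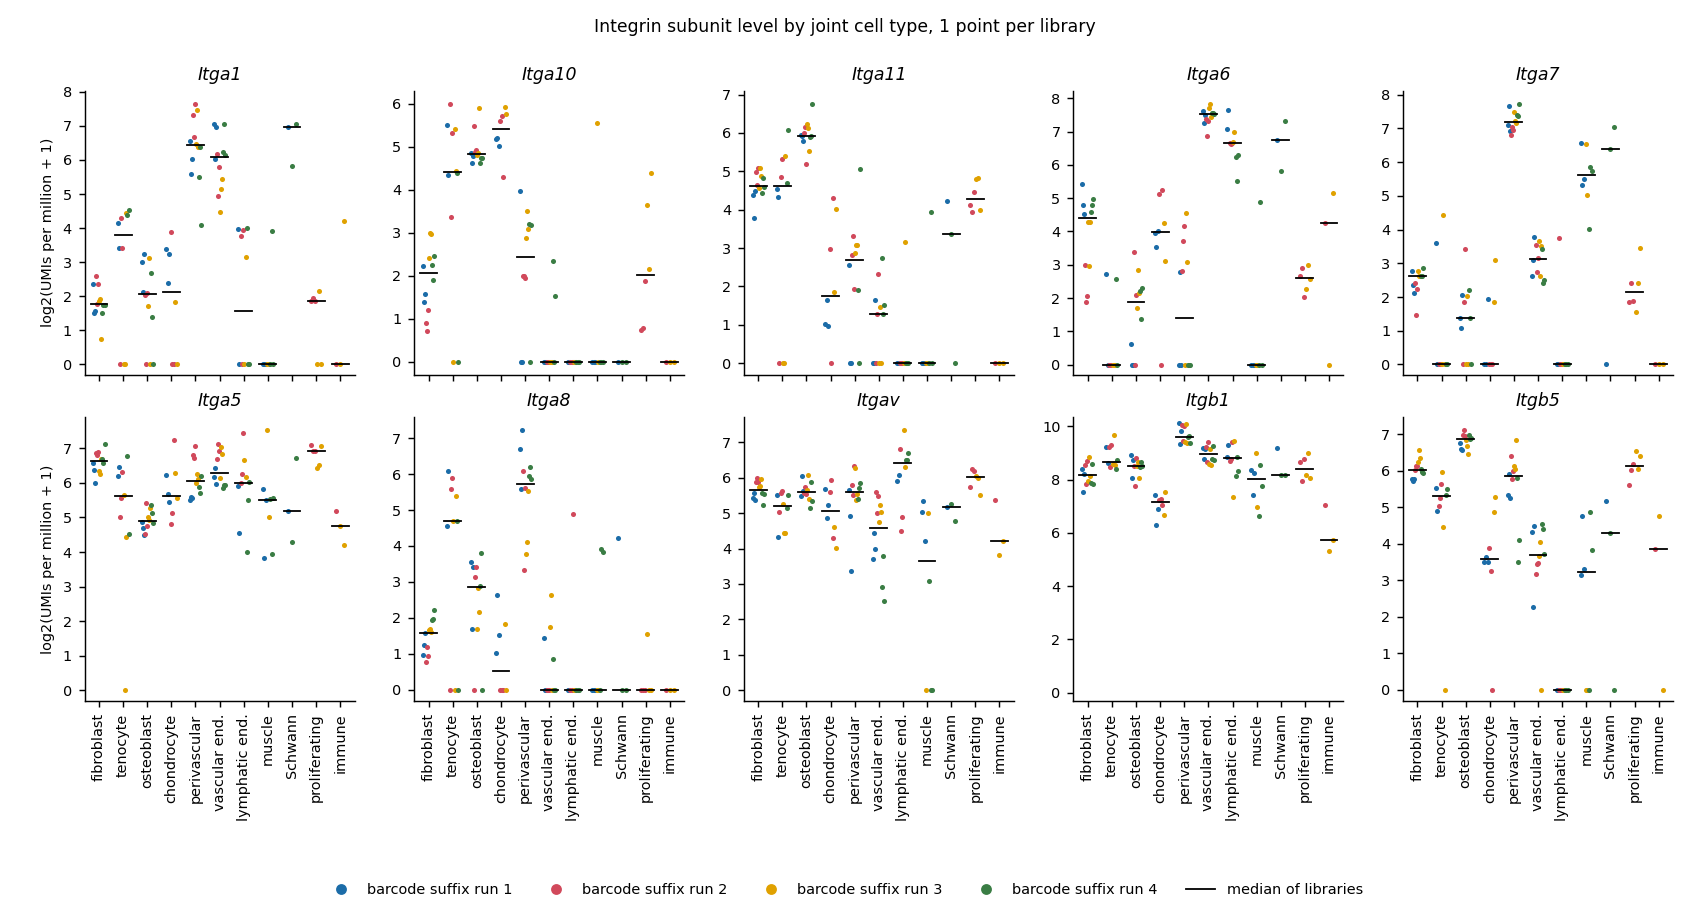
Level of each of the 10 integrin genes by cell type, as log2(CPM + 1) on the vertical axis, with 1 point per library that had at least 10 cells of the type, coloured by run of barcode suffixes, and a bar at the median. Erythroid cells (2 libraries) are not drawn. Itga1 and Itga7 stood high in perivascular cells, Itga6 in vascular endothelial cells, Itga10 in chondrocytes and osteoblasts and Itga11 in osteoblasts, and Itgb5 lay at 0 in all 10 lymphatic endothelial sums.

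Itga1, the α subunit of a receptor for basement membrane and fibrillar collagen, was higher than in fibroblasts in 5 types, with its highest mean levels in Schwann, perivascular and vascular endothelial cells. In perivascular cells its level ran from 16.2 to 199 CPM over 12 libraries with a median of 85.6, and in vascular endothelial cells from 21 to 133 with a median of 67.3. In fibroblasts it stayed between 0.681 and 5.09 CPM with a median of 2.39. The ranges of perivascular and of vascular cells lay wholly above that of fibroblasts. Over fibroblasts, the log2 fold change was 4.97 ± 0.22 (SE) in perivascular cells (adjusted p = 1.53e-38, higher in 12 of 12 libraries) and 4.34 ± 0.20 in vascular cells (adjusted p = 1.13e-37, 12 of 12). Levels in vessel cells differed between runs. In vascular cells they were 132, 64.2 and 124 CPM in run 1 and 42.1, 21 and 34.8 in run 3, without overlap, and the mean difference from fibroblasts ran from 3.39 in run 2 to 4.87 in run 1 on the log2 scale. In perivascular cells that mean ran from 3.66 in run 4 to 5.28 in run 3. Schwann cells of the nerves gave 55.8, 123 and 131 CPM in the 3 libraries with enough cells, a log2 fold change of 4.41 ± 0.65 (adjusted p = 5.40e-08). The order by mean level was Schwann, perivascular and vascular endothelial cells, whose ranges overlapped. Cells with an Itga1 UMI made up 33.2% of perivascular and 23.5% of vascular endothelial cells but 1.76% of fibroblasts, although fibroblasts were deeper (medians of 3882, 3176 and 5661 UMIs). With every cell thinned to 2000 UMIs the shares were 19.1%, 14.6% and 0.571%.

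In cells of tendon and cartilage Itga1 was called as well, on few UMIs. Tenocytes gave 11.7 ± 9.11 CPM (SD, n = 10) from 13 UMIs, with a log2 fold change of 2.1 ± 0.63 (adjusted p = 0.00705, higher in 7 of 10 libraries), whose adjusted p was 0.0585 without peak 3. Chondrocytes gave 4.79 ± 5.17 CPM (SD, n = 8), with a log2 fold change of 1.22 ± 0.45 (adjusted p = 0.0185) and 4 of 8 libraries higher. The mean difference was 1.18 on the log2 scale in run 1 but -0.95 in each of runs 2 and 3, and the adjusted p was 0.0759 without rest 1 and 0.0981 without resolving 1. In these cells the mean paired difference used by an exact paired permutation test had the opposite sign, at -0.15 (adjusted p = 0.849), and with cells thinned to 2000 UMIs the value was 0.05 (adjusted p = 0.973).

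Itga10, whose product is known as a collagen receptor of cartilage, was high in both skeletal cell types. Chondrocytes held 18.7 to 59.5 CPM with a median of 41.8 over 8 libraries, and osteoblasts 23.6 to 58.7 with a median of 27.4 over 12. Fibroblasts reached 6.94 at most, so neither range met theirs. Against fibroblasts, the log2 fold change was 3.97 ± 0.28 in chondrocytes (adjusted p = 2.84e-23, 8 of 8 libraries) and 3.12 ± 0.22 in osteoblasts (adjusted p = 5.05e-23, 12 of 12). Tenocytes had 25.7 ± 20.7 CPM (SD, n = 10; log2 fold change 2.75 ± 0.46, adjusted p = 6.97e-07, 8 of 10 libraries), with run means from 3.95 in run 2 to -0.16 in run 4. The ranges of these 3 types overlapped. An Itga10 UMI was found in 37.5% of chondrocytes (median 12533.5 UMIs per cell), 14% of osteoblasts (5356) and 0.396% of vascular endothelial cells (3176). After thinning, the shares in chondrocytes and osteoblasts were 7.05% and 6.38%. In vascular cells Itga10 was lower than in fibroblasts, with 7 UMIs in 1767 cells and a log2 fold change of -1.89 ± 0.49 (adjusted p = 4.66e-04). Lymphatic, immune and Schwann cells had no UMI of it, and there the fibroblast level itself was under the level of 3 UMIs, so no fold is given. An unnamed cluster of 1503 cells led by Clu, Wif1, Angptl7 and Chad, which had tenocyte markers but not Scx, held 23 ± 7.43 CPM (SD, n = 12) of Itga10 and 10.2 ± 4.02 of Itga1.

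Itga11 codes for the α subunit of a receptor for fibrillar collagen on mesenchymal cells. Osteoblasts had 35.7 to 107 CPM with a median of 59.9, above the fibroblast range of 12.7 to 33.3 with its median of 23.6. This gave a log2 fold change of 1.28 ± 0.13 (adjusted p = 7.50e-15, 12 of 12 libraries). An unnamed cluster led by Spon2, C1qtnf3 and Tnmd had 59.2 ± 16.9 CPM (SD, n = 7), from 28.7 to 83.7, which overlapped osteoblasts. All 7 fibroblast markers were detected in it, but it was not counted among the fibroblasts, so the comparison above leaves it out. With coarser clustering, a cluster of 2675 cells led by Spon2, Angptl1 and C1qtnf3 was named fibroblast. Tenocytes, at 24.1 ± 21.3 CPM (SD, n = 10), were not called against fibroblasts (adjusted p = 0.699). Itga11 was lower in 7 types. In vascular endothelial cells it was at 1.53 ± 1.81 CPM (SD, n = 12; log2 fold change -3.87 ± 0.26, adjusted p = 6.28e-26, lower in 12 of 12 libraries). Perivascular cells had 6.60 ± 8.71 CPM (log2 fold change -2.26 ± 0.29, adjusted p = 3.93e-11) and chondrocytes 5.93 ± 7.17 (log2 fold change -2.91 ± 0.38, adjusted p = 5.70e-11, lower in 8 of 8). Proliferating cells had 20.2 ± 5.97 CPM (SD, n = 6), and this call did not hold without resolved 1 (adjusted p = 0.083) or rest 2 (adjusted p = 0.107). Lymphatic endothelial cells and muscle progenitors each gave 1 UMI. Immune cells gave none in 72 cells, which puts the level at least 3.03-fold lower than in fibroblasts, taking 3 UMIs over the group as the floor.

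Itga6, the laminin-binding subunit that also pairs with β4, was high in both endothelia. Vascular endothelial cells held 117 to 226 CPM with a median of 182, lymphatic endothelial cells 44.8 to 200 with a median of 99.9, and fibroblasts 2.68 to 41.7 with a median of 20.3. Neither endothelial range met that of summed fibroblasts. Most fibroblast UMIs of Itga6 came from the lining cluster described below, which held 20.2 to 195 CPM and overlapped both endothelial ranges. The sublining cluster 3 held 4.03 ± 4.31 CPM (SD, n = 12). Each call against fibroblasts given here is against that mix. The log2 fold change was 3.08 ± 0.20 in vascular cells (adjusted p = 4.78e-24, 12 of 12 libraries) and 2.03 ± 0.38 in lymphatic cells (adjusted p = 4.75e-06, 10 of 10), the second from 77 UMIs. With sums of at least 25 cells, which leaves fewer libraries, the lymphatic value was 2.39 with an adjusted p of 0.134. Schwann cells had 106 ± 50.9 CPM (SD, n = 3), which did not pass the threshold (adjusted p = 0.158, higher in 3 of 3 libraries). Osteoblasts were lower, at 2.85 ± 2.82 CPM (SD, n = 12), with a log2 fold change of -3.16 ± 0.44 (adjusted p = 5.00e-09). In run 2, where fibroblasts themselves had little Itga6, the mean difference from osteoblasts shrank to -0.49 on the log2 scale, against -4.71 in run 1. Tenocytes (2 UMIs in 215 cells) and muscle progenitors (2 UMIs in 255 cells) were called lower. Without peak 1 these calls had adjusted p-values of 0.0521 and 0.0554, and without peak 3, resolved 3, resolving 1 or rest 1 the adjusted p in muscle progenitors lay at 0.0595, 0.0774, 0.0581 or 0.0791. Proliferating cells were lower at 5.09 ± 1.45 CPM (SD, n = 6), with a log2 fold change of -1.44 ± 0.44 (adjusted p = 0.0083), yet 2 of the 6 libraries were higher, and the mean difference was 0.21 in run 2 and -1.23 in run 3.

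Itga7, the laminin receptor subunit known from muscle, was high in the contractile cells of the vessel wall. Perivascular cells held 111 to 210 CPM with a median of 145, and fibroblasts 1.79 to 6.21 with a median of 5.11. Muscle progenitors lay between them at 15.1 to 94.7 with a median of 48.4, and none of these 3 ranges overlapped. The log2 fold change over fibroblasts was 4.77 ± 0.16 in perivascular cells (adjusted p = 9.86e-49, 12 of 12 libraries), with run means from 4.62 to 4.89, and 3.12 ± 0.35 in muscle progenitors (adjusted p = 4.27e-13, 8 of 8). Schwann cells gave 0, 83.7 and 131 CPM (log2 fold change 3.11 ± 0.55, adjusted p = 4.00e-06), with the library of run 1 at 0 and both of run 4 higher. A UMI of Itga7 was found in 46.6% of perivascular cells, 13.2% of muscle progenitors and 1.25% of osteoblasts, and after thinning in 27.5%, 9.44% and 0.445%. In 132 unnamed cells with the muscle fibre genes Acta1 and Tnnc2, the level was 22.1 ± 15.8 CPM (SD, n = 5). Osteoblasts (log2 fold change -1.19 ± 0.33, adjusted p = 0.00177) and chondrocytes (5 UMIs, log2 fold change -1.58 ± 0.55, adjusted p = 0.0117) were lower. The osteoblast call did not hold with cells thinned to 2000 UMIs (adjusted p = 0.388). The chondrocyte call did not hold without peak 1 (adjusted p = 0.118) or rest 1 (adjusted p = 0.094).

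Itga8, a receptor subunit for nephronectin and other matrix proteins, was low in fibroblasts, at 0.703 to 3.69 CPM with a median of 2.01. Perivascular cells held 8.99 to 148 CPM with a median of 52.4, all above the fibroblast range. Over fibroblasts, this was a log2 fold change of 4.40 ± 0.30 (adjusted p = 2.04e-25, 12 of 12 libraries). The perivascular level was 103, 47.1 and 148 CPM in run 1 and 45.1, 12.6 and 16.3 in run 3, without overlap, and the mean difference from fibroblasts was 5.23 and 2.82 on the log2 scale in those runs. Tenocytes had 28.5 ± 24.5 CPM (SD, n = 10; 3.82 ± 0.48 on the log2 scale, adjusted p = 1.22e-10) with 7 of 10 libraries higher and 3 at 0, and an exact paired permutation test gave an adjusted p of 0.109 for Itga8 and 0.130 for Itga10 in these cells. Osteoblasts had 5.94 ± 4.33 CPM (SD, n = 12; log2 fold change 1.44 ± 0.35, adjusted p = 3.88e-04, 10 of 12). The share of cells with an Itga8 UMI was 13.2% in perivascular cells and 12.9% in tenocytes, against 0.340% in vascular endothelial cells. Vascular endothelial cells were called lower on 6 UMIs (adjusted p = 0.0201), but not without peak 3 (0.0521), resolved 3 (0.0696), resolving 3 (0.0806) or rest 2 (0.0516). In proliferating cells the call rested on 1 UMI and did not hold without peak 2 (adjusted p = 0.0873).

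Itga5, the α subunit of the main fibronectin receptor, was spread over fibroblasts and vessel cells. Fibroblasts held 63 to 139 CPM with a median of 98.6. It was called lower in 9 of 11 types and higher in none. Osteoblasts had 21.3 to 41.5 CPM with a median of 28.7, wholly below fibroblasts, and the log2 fold change was -1.77 ± 0.15 (adjusted p = 1.11e-19, lower in 12 of 12 libraries). Muscle progenitors had 54.1 ± 54.4 CPM (SD, n = 8), with a log2 fold change of -1.25 ± 0.28 (adjusted p = 1.39e-04), and lymphatic cells 68.6 ± 43.9 (SD, n = 10), with -1.14 ± 0.23 (adjusted p = 1.80e-05) and run means from -1.63 in run 4 to 0.11 in run 3. Tenocytes had 51.6 ± 34.3 CPM and a log2 fold change of -0.87 ± 0.22 (adjusted p = 0.0012). Immune cells (11 UMIs), Schwann cells (8 UMIs) and erythroid cells (1 UMI) were also lower, the Schwann call not without peak 3 (adjusted p = 0.163). In perivascular cells the log2 fold change was -0.62 ± 0.15 (adjusted p = 4.06e-04) with a run mean of 0.01 in run 2, and it was -0.50 without resolving 3, just short of the limit. In chondrocytes it was -0.51 ± 0.18 (adjusted p = 0.0117), and this call did not hold without peak 1, any of the 3 resolved libraries, resolving 3, rest 2 or rest 3, where the value lay between -0.41 and -0.50. Vascular endothelial cells, at 89.2 ± 30.3 CPM (SD, n = 12), had a log2 fold change of -0.50 ± 0.13 (adjusted p = 4.31e-04), just under the fold limit.

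Itgav, the αv subunit, differed little among the mesenchymal types. Its level was 50.1 ± 8.41 CPM in fibroblasts, 49.2 ± 9.79 in osteoblasts and 48.0 ± 18.7 in perivascular cells (SD, n = 12 each), and neither type was called against fibroblasts. Vascular endothelial cells had 4.70 to 47.6 CPM with a median of 23.2, and fibroblasts 36.7 to 62.3 with a median of 49.2. Although these ranges overlapped, each vascular sum lay below the fibroblast sum of its own library. This was a log2 fold change of -1.55 ± 0.17 (adjusted p = 8.99e-15, 12 of 12), with run means from -2.38 in run 4 to -0.55 in run 2. Muscle progenitors were lower at 15.9 ± 16.3 CPM (SD, n = 8), with -1.75 ± 0.42 (adjusted p = 3.62e-04, 8 of 8). Lymphatic endothelial cells held 81.0 ± 40.9 CPM (SD, n = 10) without passing the threshold (log2 fold change 0.03 on TMM scaling, adjusted p = 0.937), but passed it with no scaling beyond total counts, at 0.63.

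Among the β subunits, Itgb1 was detected in every type. Fibroblasts held 186 to 455 CPM with a median of 288, and perivascular cells 648 to 1100 with a median of 780. No perivascular sum was as low as any fibroblast sum, and the log2 fold change was 1.24 ± 0.11 (adjusted p = 1.78e-19, 12 of 12 libraries). Chondrocytes were lower, at 76.7 to 183 CPM with a median of 140 (log2 fold change -1.17 ± 0.14, adjusted p = 8.36e-13, 8 of 8). Immune cells were lower too, at 73.7 ± 48.9 CPM (SD, n = 3; log2 fold change -2.22 ± 0.26, adjusted p = 2.86e-12). Vascular endothelial cells had 504 ± 106 CPM (SD, n = 12) and were higher in 12 of 12 libraries, but the log2 fold change of 0.43 ± 0.10 (adjusted p = 1.67e-04) was under the limit. It passed the limit at 0.62 with DESeq2 and at 0.75 with no scaling beyond total counts. Erythroid cells had 18 UMIs in 25 cells and a log2 fold change of -1.12 ± 0.32 (adjusted p = 0.0067), beside a median of -1.01 over all genes tested in that comparison, and the call did not hold without resolved 1 (adjusted p = 0.58).

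Itgb5, the β subunit of the vitronectin receptor with αv, was higher in osteoblasts than in fibroblasts and lower in 7 types. Osteoblasts held 86.3 to 137 CPM with a median of 115 and fibroblasts 51.7 to 94.1 with a median of 64.4. The ranges overlapped at their ends, and within each of the 12 libraries osteoblasts were higher (log2 fold change 0.66 ± 0.12, adjusted p = 2.32e-06). Vascular endothelial cells held 0 to 22.1 CPM with a median of 11.9, all below fibroblasts (log2 fold change -2.54 ± 0.17, adjusted p = 1.91e-26, 12 of 12). Lymphatic endothelial cells had 0 UMIs in 172 cells of 10 libraries, which puts them at least 16.8-fold lower than fibroblasts with 3 UMIs over the group as the floor. Chondrocytes (15.2 ± 12.2 CPM, SD, n = 8) and tenocytes (35.7 ± 16.9, n = 10) were lower with log2 fold changes of -1.99 ± 0.23 (adjusted p = 2.52e-12) and -1.02 ± 0.26 (adjusted p = 0.00124). Muscle progenitors (8 UMIs), immune cells (5 UMIs) and Schwann cells (4 UMIs) were lower as well, the last not without peak 3 (adjusted p = 0.103). In perivascular cells, at 55.4 ± 28.1 CPM (SD, n = 12), the log2 fold change of -0.43 ± 0.16 was under the limit. Proliferating cells, at 71.0 ± 16.1 CPM (SD, n = 6), were not called against fibroblasts either (adjusted p = 0.263).

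The rest of the pathway was described by lists of other integrin subunits, of adaptor and cytoskeletal proteins at adhesions, and of integrin ligands. The adaptor and ligand genes could enter the clustering that made the types, so their counts describe the types and are not independent of them. Over all pairs of gene and type, 9 of 55 pairs of other subunits were higher and 11 lower, and 58 and 83 of 297 for adaptors. For ligands the counts were 51 and 171 of 319. Over all genes tested, 12.6% of such pairs were higher and 20.3% lower. Perivascular cells had 14 adaptors higher and 4 lower of 27, beside 17% and 23.2% of genes, with a median log2 fold change of 0.75 beside -0.12 over all genes. Among them were filamin A (Flna, 2.66 ± 0.13, adjusted p = 2.27e-37), α-actinin (Actn1, 2.13 ± 0.19, adjusted p = 3.61e-16) and tensin 1 (Tns1, 1.89 ± 0.15, adjusted p = 1.85e-20), while talin 2 (Tln2) was lower at -1.56 ± 0.23 (adjusted p = 5.28e-09). Of 29 ligands, 7 were higher and 16 lower there, with a median of -0.74. The ligands laminin α5 (Lama5, log2 fold change 4.74 ± 0.25, adjusted p = 4.34e-34) and vitronectin (Vtn, 3.81 ± 0.16, adjusted p = 2.29e-36) were among the 7.

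In vascular endothelial cells β4 (Itgb4), the other partner of α6, was higher at 34.4 ± 27.9 CPM against 1.32 in fibroblasts (log2 fold change 4.09 ± 0.26, adjusted p = 1.88e-26). In lymphatic cells Itgb4 stood at 62.2 ± 50.7 CPM (4.87 ± 0.40 on the log2 scale, adjusted p = 6.91e-19). Itgb8, a β subunit that pairs with αv, was lower in vascular endothelial cells (-5.72 ± 0.47, adjusted p = 6.51e-20) and in osteoblasts (-4.48 ± 0.41, adjusted p = 2.94e-17). β-parvin (Parvb), an adaptor of the ILK complex, was higher in both endothelia, at 98.0 ± 15.9 CPM in vascular and 72.7 ± 28.8 in lymphatic cells against 1.19 in fibroblasts. Osteoblasts had more nephronectin (Npnt, 51.7 ± 15.0 against 0.719 CPM, log2 fold change 5.84 ± 0.24, adjusted p = 1.13e-38), a ligand of α8β1, and more osteopontin (Spp1, 5.22 ± 0.56, adjusted p = 5.14e-13). Muscle progenitors had more of the cell-bound ligand Vcam1 (3.02 ± 0.26, adjusted p = 1.99e-16). Immune cells had more of the leukocyte β2 subunit (Itgb2, 8.70 ± 0.57, adjusted p = 1.42e-19), which pairs with none of the members.

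Vascular endothelial cells formed 2 clusters, and the integrins differed between them within the same libraries. Cluster 8, with 1131 cells led by Timp4, Cd36 and Gpihbp1, had 56.2 to 188 CPM of Itga1, and cluster 14, with 636 cells led by Plvap and Selp, had 6.58 to 59.1. The level was higher in cluster 8 in 12 of 12 libraries, with means of 116 ± 46.2 and 32.3 ± 17.3 CPM (SD, n = 12). Itga5 ran the other way in 12 of 12 libraries, at 67.2 ± 21.1 CPM in cluster 8 and 109 ± 26.1 in cluster 14. Itga7 was at 1.17 ± 2.49 and 16.0 ± 8.20 CPM, with cluster 14 higher in 11 libraries, and Itgav at 11.6 ± 7.82 and 29.9 ± 16.6 CPM, with cluster 14 higher in 10. Itga6 had no such order, at 185 ± 51.2 and 177 ± 45.5 CPM, with each cluster higher in 6 libraries. Itgb1 was at 534 ± 94.9 and 473 ± 116 CPM, higher in cluster 8 in 11 libraries. These values are a description without a test, and the clusters also differed in depth, with medians of 2706 and 4590.5 UMIs per cell. The 8 perivascular markers summed to 63.2 to 782 CPM in cluster 8, 648 to 3021 in cluster 14 and 12745 to 20356 in perivascular cells, with none of them at 0 in either cluster, and their part in the Itga7 of cluster 14 was not tested.

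**Figure D2:**
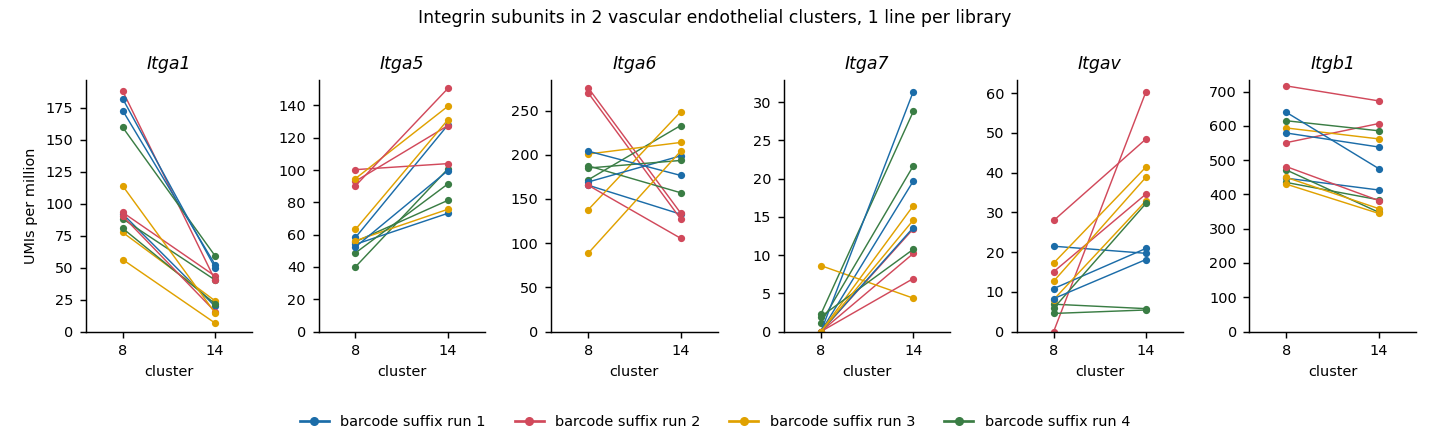
Level in CPM of 6 integrin genes in the vascular endothelial clusters 8 and 14, with a line joining the 2 values of each of the 12 libraries, coloured by run. All 12 lines fall for Itga1 and rise for Itga5, and 6 rise and 6 fall for Itga6.

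Within fibroblasts, 6 members had enough UMIs to be tested across the 8 clusters, over 7496 genes, each cluster against the mean of the others. Itga1, Itga7, Itga8 and Itga10 did not pass the filter on low counts. Of 48 pairs, 7 were higher and 4 lower, beside 10.9% and 9.34% of all pairs. The lining cluster (cluster 9, 1104 cells, with Prg4 for lubricin and Clic5) had 4 of these calls, where 30.8% of genes were called. Cluster 1 had 3, beside 24.5%. Cluster 6 had 1 beside 17.8%, cluster 0 had 1 beside 28%, cluster 10 had 1 beside 11.6% and cluster 12 had 1 beside 17%. Cluster 3, the sublining cells with Pi16 and Dpp4 (beside 15.8%), and cluster 11, led by Ccl11 (beside 16%), had none.

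Itga6 marked off the lining cluster from other fibroblasts. Its level there was 195, 20.3 and 96.1 CPM in the 3 libraries labelled rest, and 159, 20.2 and 123 in those labelled peak. It was 122, 91.9 and 88.4 CPM in the libraries labelled resolving and 61.9, 35.6 and 116 in those labelled resolved. The mean over the other clusters was 5.39 ± 2.61 CPM (SD, n = 12), and the lining cluster was higher in 12 of 12 libraries. The log2 fold change was 4.33 ± 0.15 (adjusted p = 1.16e-44), with run means from 2.94 in run 2 to 4.30 in run 4. Of the 1112 UMIs of Itga6 in fibroblast sums, 890 came from the lining cluster. A UMI was found in 34.2% of lining cells (95% Wilson interval 31.5 to 37.1) and in 0.709% to 2.86% of the cells of the other clusters, beside 1.17% of osteoblasts. Lining cells were deeper (median 7664.5 UMIs) than osteoblasts (5356), and after thinning the share was 14.3% against 0.445%. Such intervals cover counting error only.

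The lining cluster had more of both partners αv and β5. Itgb5 was at 64.0 to 128 CPM there with a median of 102, against 57.4 ± 11.8 in the other clusters (log2 fold change 0.69 ± 0.07, adjusted p = 4.33e-15, 12 of 12 libraries). Itgav was at 47.7 to 89.7 CPM with a median of 71.6, against 42.0 ± 6.62 (0.56 ± 0.08, adjusted p = 1.10e-08, 12 of 12), and the difference was 0.34, under the limit, with no upper limits on cells. Itga11, the fibrillar collagen receptor, was lower at 2.48 to 13.8 CPM with a median of 6.03, against 23.8 ± 6.66 (-2.1 ± 0.19, adjusted p = 1.82e-17, lower in 12 of 12). Itgb1 was higher in 12 of 12 libraries by only 0.25 ± 0.06 on the log2 scale (adjusted p = 7.20e-05), under the fold limit, and Itga5 was not called (0.10 ± 0.08, adjusted p = 0.305). The untested Itga7 stood at 5.07 to 29.1 CPM with a median of 18 in the lining cluster, and its means in the other 7 clusters were 0.725 to 4.01. It lay above the mean of the other clusters in 12 of 12 libraries, 176 of 300 UMIs of Itga7 in fibroblasts came from it, and 12% of its cells had a UMI (3.32% after thinning). Single clusters lay above it in rest 2 (cluster 3 at 6.60 CPM from 1 UMI and cluster 11 at 6.51 from 2, against 5.07) and in rest 3 (cluster 0 at 9.08 against 7.79). Itga8 (4.49 ± 3.04 CPM) and Itga10 (5.07 ± 3.21 CPM) lay above the mean of the other clusters in 9 of 12 libraries, and Itga1 in 4. The 8 perivascular markers summed to 253 to 546 CPM in the lining cluster and 21.9 to 246 in the other clusters. Rgs5, Des and Cspg4 were higher in the lining cluster than in the other clusters pooled (250.1, 48.2 and 55.0 CPM against 6.51, 7.05 and 13.4). Acta2 (17.8 against 98.6 CPM) and Notch3 (0.882 against 2.13) were lower there. Myh11 (2.32 against 0.822), Mcam (1.54 against 0.665) and Higd1b (0.331 against 0.227) were low in both. The part of these markers in the Itga7 of the lining cluster was not tested.

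**Figure D3:**
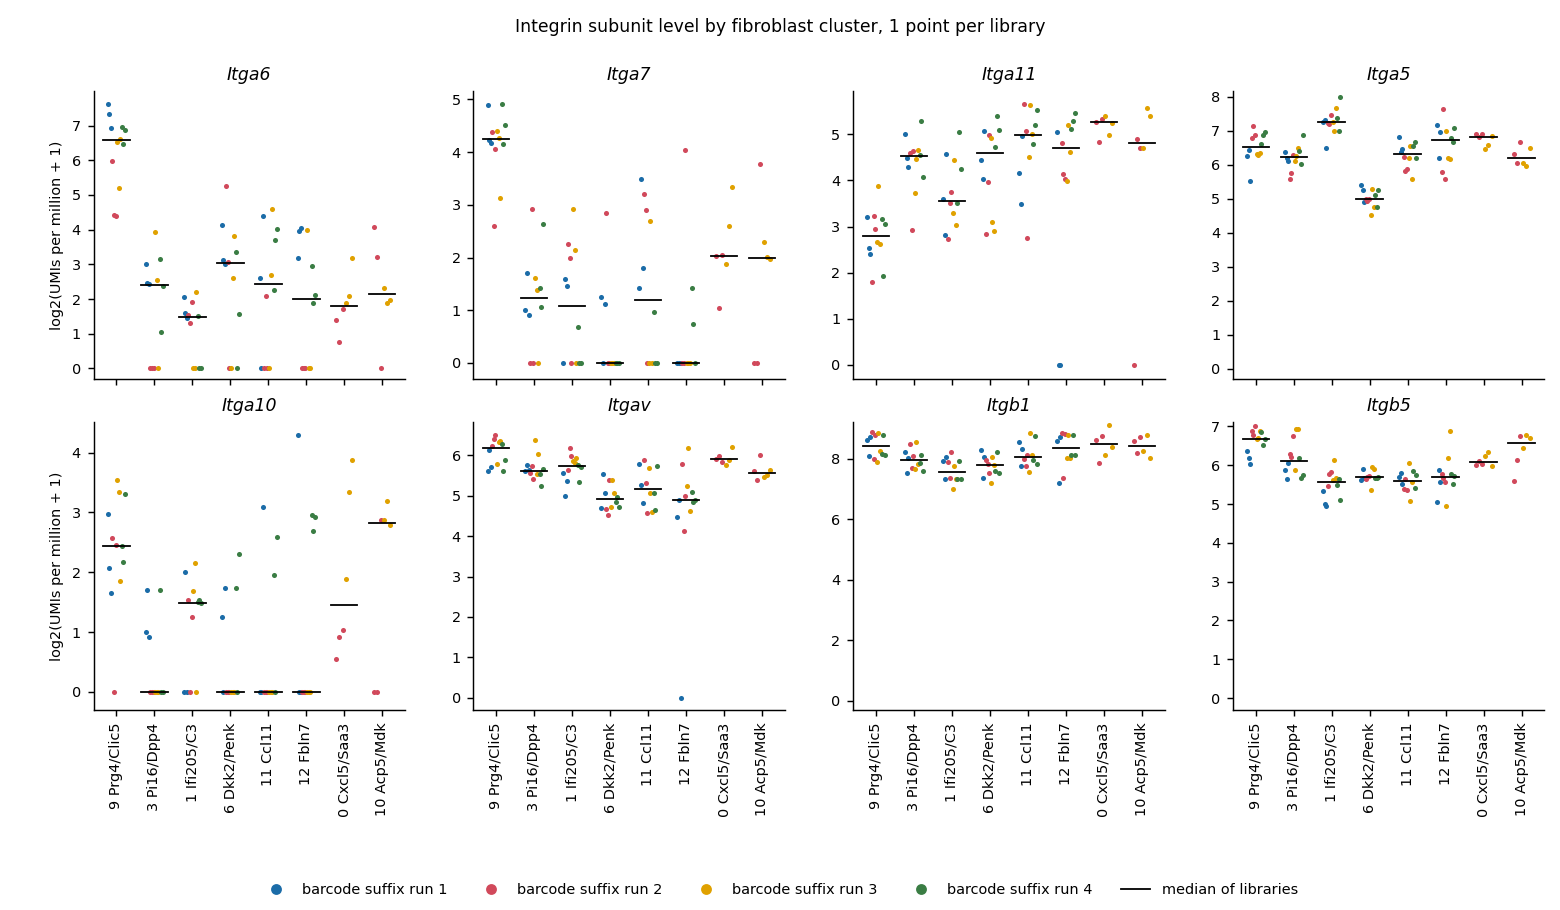
Level of 8 integrin genes in the 8 fibroblast clusters, as log2(CPM + 1) on the vertical axis, with 1 point per library, coloured by run, and a bar at the median. All 12 points of cluster 9 lie above 4 for Itga6, Itga5 is low in cluster 6 and high in cluster 1, and Itga11 is low in cluster 9.

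Set directly against the sublining cluster 3, over 5845 genes of which 26.4% were called, the lining cluster differed in 1 of 5 members tested, Itga6. Itga6 was 4.37 ± 0.19 higher on the log2 scale (adjusted p = 6.76e-18, 12 of 12 libraries), at 94.0 ± 53.8 against 4.03 ± 4.31 CPM (SD, n = 12). Itgb1 (0.44 ± 0.07, adjusted p = 9.67e-06, 12 of 12), Itgb5 (0.46 ± 0.11, adjusted p = 6.71e-04, 9 of 12) and Itgav (0.33 ± 0.12, adjusted p = 0.0271, 10 of 12) stayed under the fold limit. Without resolved 2, Itgb5 passed it at 0.55. Itga5 was not called (0.23 ± 0.12, adjusted p = 0.106). Itga1, Itga7, Itga8, Itga10 and Itga11 did not pass the filter on low counts. With no such filter 7 members were called, among them Itga7 (3.37), Itga8 (3.41), Itga10 (2.42) and Itga11 (-1.69 on the log2 scale, at 6.44 ± 3.06 against 21.6 ± 8.19 CPM and lower in 11 of 12 libraries). With no upper limits on cells 6 were called. The cells were clustered anew there, and the sublining cluster held 2377 cells against 1432 with the limits. That larger cluster was also the best match of cluster 6. Shares of all genes called under these settings are not given.

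Itga5 instead separated 2 other clusters. Cluster 1, led by Ifi205, C4b and C3, held 89.8 to 254 CPM with a median of 151, against 79.8 ± 9.28 in the others (log2 fold change 1.23 ± 0.08, adjusted p = 1.02e-26, 12 of 12 libraries). Cluster 6, led by Serpina3c, Dkk2 and Penk, held 22.0 to 41.5 CPM with a median of 30.8, against 101 ± 15.5 (-1.55 ± 0.12, adjusted p = 5.24e-21, lower in 12 of 12). Cluster 1 was also lower in Itga6, at 1.54 ± 1.29 CPM (SD, n = 12; -2.11 ± 0.41, adjusted p = 8.89e-06). Its Itga11, at 13.8 ± 8.05 CPM (-0.60 ± 0.17, adjusted p = 0.00287), was lower in 10 of 12 libraries, and without peak 3 the difference fell to -0.49. Clustered anew with no upper limits on cells, cluster 1 had a best match with a Jaccard index of shared cells of 0.800, but cluster 6 only 0.319. With coarser clustering, at resolution 0.5, a cluster of 4742 cells was led by Pi16, Serpina3c, Ifi205 and C4b among others. These are leading genes of clusters 1, 3 and 6.

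Itga11 was higher in 3 clusters. Cluster 0, led by Cxcl5, Saa3 and Sfrp1 and found in runs 2 and 3, held 35.5 ± 5.29 CPM (SD, n = 6) against 20.2 ± 5.99 in the others (log2 fold change 0.97 ± 0.16, adjusted p = 2.82e-07, 6 of 6 libraries). Cluster 10, led by Acp5, Col14a1 and Mdk, held 27.9 ± 16.3 CPM (SD, n = 6; 0.91 ± 0.21, adjusted p = 4.94e-04), with mean differences of -1.13 in run 2 and 0.77 in run 3. Cluster 12, led by Fbln7 and Gpnmb, held 23.4 ± 14.2 CPM (0.52 ± 0.19, adjusted p = 0.0297) with 7 of 12 libraries higher. That call did not hold without peak 3 (adjusted p = 0.141), resolved 3 (0.127) or rest 1 (0.0621), where the values were 0.45, 0.43 and 0.48. When cells were clustered anew with no upper limits, the best matches of clusters 10 and 12 had Jaccard indices of 0.375 and 0.225, against 0.752 for cluster 0.

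Of the other pathway genes, 4 other subunits, 23 adaptors and 27 ligands were tested across fibroblast clusters, again with genes that had shaped the clusters. The lining cluster, where 30.8% of all genes were called in either direction, had 7 adaptors higher and 3 lower, with a median of 0.20 beside 0.00 for all genes, and 8 ligands higher and 14 lower, with a median of -0.62. Itgb8 was higher there, at 47.4 ± 16.0 against 4.76 CPM (log2 fold change 2.92 ± 0.16, adjusted p = 1.55e-30). Talin 2 (Tln2, 2.32 ± 0.08, adjusted p = 2.46e-46) and kindlin 2 (Fermt2, 1.89 ± 0.06, adjusted p = 1.33e-51), which switch integrins on from inside the cell, were higher, as was the tetraspanin Cd151 (1.54 ± 0.06, adjusted p = 2.61e-42), a binding partner of laminin receptors. Fibronectin (Fn1) was higher by 2.61 ± 0.10 (adjusted p = 8.82e-35), and laminin α2 (Lama2, -3.86 ± 0.24, adjusted p = 3.10e-25) and periostin (Postn, -3.83 ± 0.27, adjusted p = 4.01e-20) were lower. The sublining cluster 3 had more of the αv partner β3 (Itgb3, 28.6 ± 14.6 against 8.23 CPM, 1.87 ± 0.17, adjusted p = 3.30e-17).

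To ask whether integrin levels in fibroblasts followed the course of arthritis, libraries labelled peak, resolving and resolved were each set against those labelled rest, over 11544 genes. No gene and none of the 10 members was called (0% of genes in each comparison), with edgeR and with DESeq2. At an unadjusted p under 0.05 edgeR had 71, 120 and 51 genes and DESeq2 50, 85 and 32, with no member among them. Itgb1 was at 281 ± 51.5, 276 ± 118, 309 ± 71.4 and 352 ± 117 CPM (SD, n = 3) in the order rest, peak, resolving and resolved. Itga5 was at 102 ± 8.45, 101 ± 18, 79.6 ± 16.1 and 110 ± 32.2 CPM. Itgav had the lowest unadjusted p of a member, 0.0882 for resolving over rest, at 43.1 ± 7.90 against 55.0 ± 11.4 CPM. The log2 fold changes of the 10 members ran from -0.54 to 0.74, and the labels overlapped for each of them. Within a run the same label step went both ways, as with Itgb1 at peak over rest, at -0.83 on the log2 scale in run 1 and 0.83 in run 2. In simulated counts for peak over rest, 13% of genes with a log2 change of 1 and 94% of those with a log2 change of 3 were called.

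The same fibroblast sums differed between runs of barcode suffixes, in 7 of 10 members beside 55.3% of genes. With cells thinned to 2000 UMIs, 3 members (Itga5, Itgav and Itgb5) and 3189 genes were called, against 6384 genes without thinning. Itga6 was at 41.7, 27.0 and 22.0 CPM in the 3 libraries of run 1, at 7.03, 2.68 and 3.16 in run 2, at 18.6, 6.81 and 18.4 in run 3 and at 23, 26.6 and 30.5 in run 4 (adjusted p = 0.00139, F test over 4 runs). Itga10 was at 2.42 ± 1.09, 0.944 ± 0.343, 6.02 ± 1.47 and 3.66 ± 0.858 CPM in runs 1 to 4 (SD, n = 3; adjusted p = 1.64e-04). Itgb5 was at 52.8 ± 0.952, 67.3 ± 2.74, 83.0 ± 10.2 and 62.1 ± 2.39 CPM (adjusted p = 2.95e-04). Itga8 (adjusted p = 0.00352), Itgav (0.00433), Itga11 (0.00976) and Itga5 (0.0146) were called too, while Itga7 (0.105), Itga1 (0.176) and Itgb1 (0.682) were not. The Itga11 call missed the threshold without peak 1 (adjusted p = 0.0526).

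The mix of clusters moved with the runs. Cluster 0 made up 0.301%, 54.1%, 18.6% and 0.219% of fibroblasts in runs 1 to 4, cluster 10 made up 0.603%, 2.56%, 31.2% and 0.656%, and the lining cluster 8.29%, 8.26%, 12.5% and 13.6%. Within the lining cluster alone 3 members were called between runs. The lining cluster also had the most genes called between runs among the clusters taken alone, and the share of genes tested is not given. Itga6 was at 158 ± 36.8, 34.1 ± 24, 74.5 ± 33.8 and 109 ± 18.1 CPM in runs 1 to 4 (SD, n = 3; adjusted p = 0.016), Itga5 at 68.3 ± 20.9, 121 ± 15.3, 78.7 ± 1.82 and 113 ± 14.2 (adjusted p = 0.00349), and Itgb5 at 72.7 ± 8.96, 117 ± 9.93, 107 ± 8.80 and 102 ± 11.8 (adjusted p = 0.0403). Within clusters 1, 3, 6 and 11 alone, 0 of the 5 members that could be tested (Itga5, Itga11, Itgav, Itgb1 and Itgb5) were called, and within cluster 12 neither Itga5 nor Itgb1. Itga6, Itga8 and Itga10 were not tested in these 5 clusters. Marker RNA of other types in the fibroblast sums moved with the runs as well. The 8 perivascular markers summed to 68.3 to 128 CPM in run 1 and 169 to 264 in run 2, the 8 osteoblast markers to 153 to 286 and 63.4 to 66.7, and the 6 proliferation markers to 6.09 to 7.62 and 39.7 to 60.6. Their part in the differences was not tested, and what the runs stand for is not stated in the sources used here.

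**Figure D4:**
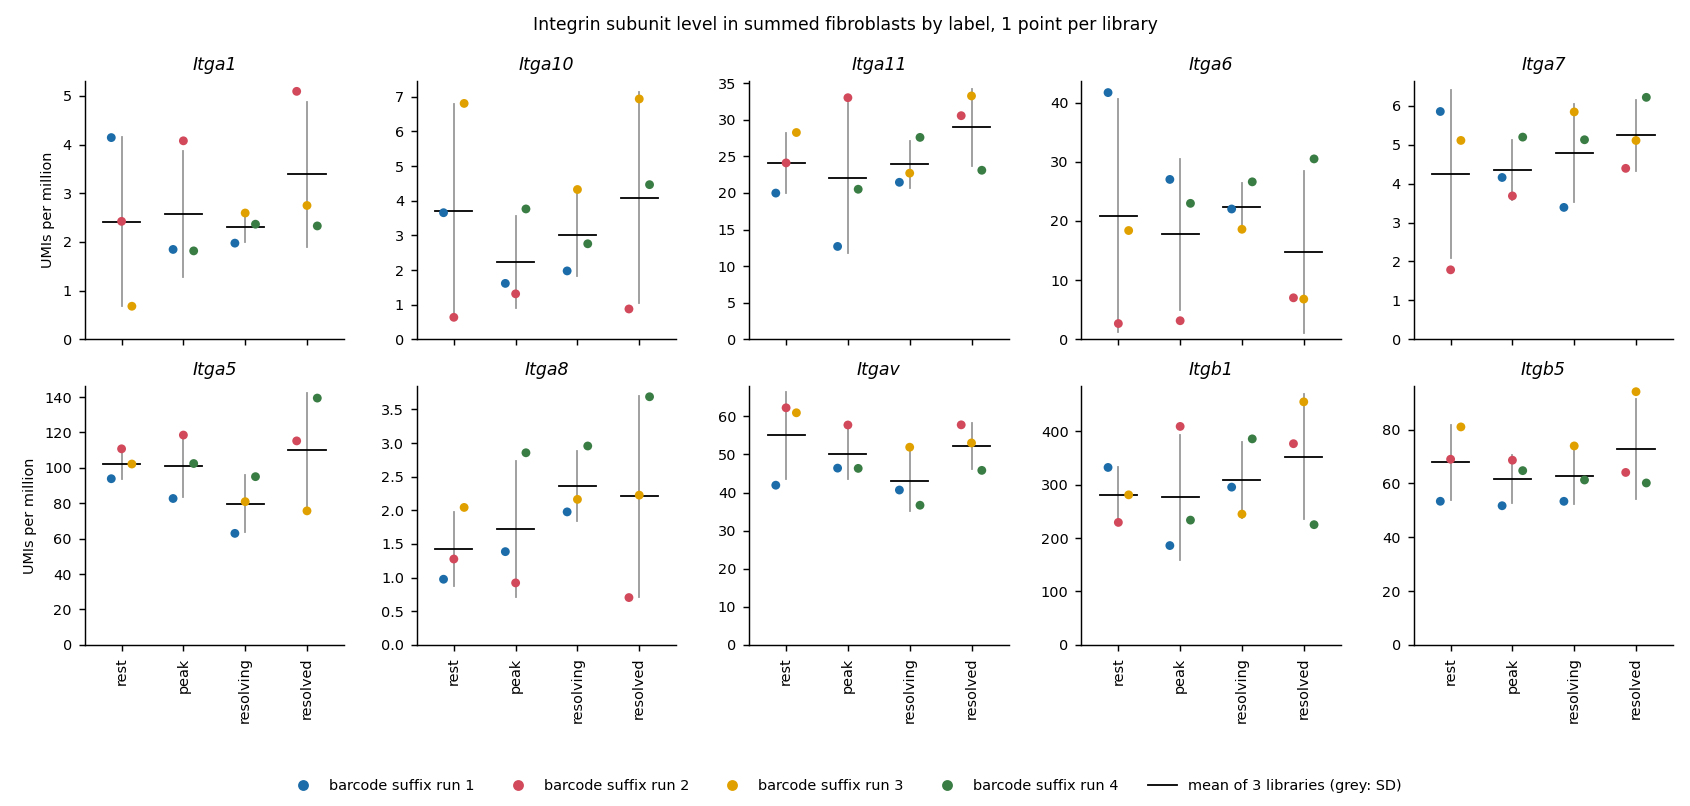
Level in CPM of each of the 10 integrin genes in summed fibroblasts by label, with 1 point per library coloured by run of barcode suffixes, a bar at the mean of 3 libraries and a grey line for the SD. The labels overlap for all 10 genes. For Itga6 the 3 libraries of run 2 lie at 2.68 to 7.03 CPM.

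Over the 11 cell types with sums in at least 3 libraries, the genes most like each member in mean log2 CPM were found as a description, from points that share libraries and depth. Itga11 was most like the collagen I genes Col1a1 (Pearson r = 0.97) and Col1a2 (0.97). Itgb5 was most like Tmem119 (0.95) and Scara3 (0.94), Itga10 like Kcnma1 (0.96) and Srpx (0.94), and Itga7 like Pgam2 (0.97) and Fam46b (0.92). Itga1 was most like Pelo (0.96), which lies within it. Itga8 was most like Mir143hg (0.90) and Dgkb (0.89), Itga6 like Zcchc6 (0.95) and Ralgds (0.92), Itga5 like Csgalnact1 (0.88) and Hras (0.86), Itgav like Ndufs5 (0.90) and l7Rn6 (0.89), and Itgb1 like Trappc6b (0.98) and Ubr1 (0.98). Between members, r ran from -0.53 for Itga6 and Itga10 to 0.86 for Itga11 and Itgb5.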

How the data were processed

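The authors aligned 10x 3′ libraries (chemistry version 2) with CellRanger 2.1.1 to mm10 and deposited whole-number UMI counts per gene and cell. Cells with 500 to 5000 genes, more than 500 UMIs and fewer than 20000 to 40000 UMIs, by library, were kept. With scanpy 1.11.5, 2000 variable genes, 30 components and Leiden resolution 1 gave 25 clusters, named from marker lists. All 27 Itga and Itgb genes were kept out of clustering and markers. No doublets were removed, since Scrublet marked 56 cells (0.279%). An alternative removed 1209. The members and lists were chosen with earlier results of these data known, and the naming limits were set after the clusters had been seen.

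Counts were summed per library and cell type, cluster or all fibroblasts (at least 10 cells), filtered with filterByExpr, TMM-scaled and tested with edgeR 4.0.16 (quasi-likelihood, two-sided, Benjamini-Hochberg over all genes tested). Library was a block for cell types and clusters. Stage labels had no block. Named list genes were at most 3 each way per list and comparison, with the largest fold and 1 direction in every library. Deviations of same-numbered libraries correlated at -0.597 to 0.727, and replicate numbers were therefore not used as pairs. On simulated counts with a log2 change of 1, recovery was 67.5% for perivascular cells (7066 genes), 92.0% for the lining cluster (6858), 93.5% for lining over sublining (5727) and 86.0% for runs (11316). Alternatives were other scaling, no filter, DESeq2 1.42.0, other cell limits, thinning to 2000 UMIs, other blocks and leaving out each library. The 2 genes most like each member were named, except 1 for Itga1 that is not reported here. P-values for labels and runs measure the spread between library pools. With library as a block, those for cell types and clusters measure the spread left after differences between libraries are removed.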

Additional observations from a re-analysis of the deposited data

Results flagged for a closer look

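In 15 of 68 groups of 4 to 10 libraries, 1 library lay apart from the rest by Dixon's criterion. Its chance rate of about 1 group in 20 holds for normally distributed values and not for sums of a few UMIs. No excess of outlying libraries is therefore read from this count. In 9 of the 15 groups the level rested on 1 or 2 UMIs while all or most other libraries had none. In muscle progenitors these were Itga1 (14.2 CPM), Itga6 (28.5) and Itga11 (14.2) in resolving 3, and Itga10 in resolving 2 (45.8). In lymphatic endothelial cells they were Itga7 in resolved 1 (12.5), Itga8 in peak 2 (28.5) and Itga11 in resolved 2 (7.84). The others were Itga7 in chondrocytes of resolved 2 (7.64) and Itga8 in proliferating cells of resolving 2 (1.93).

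The others rested on 2 to 10 UMIs. Itga5 stood at 149 CPM in chondrocytes of peak 2 (8 UMIs in 53615, the smallest sum of that type), where the other libraries held 27.3 to 77.7, and at 183 CPM in muscle progenitors of resolving 2 (4 UMIs), where the others held 13.1 to 55.2. Itga7 was at 9.92 CPM in proliferating cells of rest 3 (2 UMIs), against 1.93 to 4.30 in the other libraries. In fibroblast cluster 0, Itga6 was at 8.17 CPM in rest 3 (9 UMIs) against 0.705 to 3.21. In cluster 10, peak 2 had 12.6 CPM of Itga7 (2 UMIs) against 0 to 3.94, and 63.1 CPM of Itgav (10 UMIs) against 41.0 to 48.6.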

How the results depend on the processing

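Among alternative values of single genes, 4306 kept direction and side of the threshold, 124 lost the call, 93 gained it and 2 turned. Itgb1 in lymphatic endothelial cells turned from -0.11 to 0.50 on the log2 scale without scaling beyond total counts, and Itga1 in chondrocytes from 1.22 to -0.15 under the exact paired permutation test. Pairs of member and type lower than in fibroblasts went from 37 to 24 under that test, which cannot pass the threshold with 3 libraries. Across fibroblast clusters, higher pairs went from 7 to 16 with no filter on low counts, which adds 4 members. Lower pairs went from 4 to 10 with no filter, 9 with no upper limits on cells, and 7 with no library block or with no scaling. With no filter, Itga7 in the lining cluster gave a log2 fold change of 3.28 ± 0.21 (edgeR, adjusted p = 7.71e-50). For lining over sublining, members called went from 1 to 7 with no filter, 6 with no upper limits, and 2 with thinning. With no upper limits the cells were clustered anew, so the lining and sublining cells were not the same sets. Leaving out each library in turn gave 18 to 21 higher and 33 to 38 lower type pairs, 6 to 9 and 3 to 6 cluster pairs, 1 to 2 members for lining over sublining, 0 for each label comparison, and 6 to 7 members and 5580 to 6334 genes between runs. For cell types, fibroblast clusters and lining over sublining, shares of all genes called under these other settings are not given. Those member counts therefore describe the members only. Thinning left 3 members and 3189 of 6384 genes between runs. Within 1 cluster, an alternative chosen after seeing the data, genes called between runs were 285, 522, 205, 1393, 181 and 85 in clusters 1, 3, 6, 9, 11 and 12, with 3 of 6 members tested in cluster 9 and 0 of 5 (0 of 2 in cluster 12) in the others. The cause of these shifts was not tested. The numbers of genes tested within each cluster are not given, so these member counts have no share beside them. In the label comparisons, a replicate block left 0 members called and changed no call. A block for runs of barcode suffixes left all 30 member values there the same in direction and side of the threshold. Depth limits the rare types, where 1 to 3 UMIs can decide a sum.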
